A study of Homo sapiens with 4 samples.

Results

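The kinesins are a family of motor proteins that walk along microtubules. The genes described here were those of the deposited table whose symbol was KIF followed by a number and an optional letter from A to C, or was KIFC1, KIFC2 or KIFC3. This gave 34 of the 14431 listed genes, and all 34 passed the filter on low values (a mean of 1 CPM or more in either group, where CPM stands for reads scaled to library size). By known role, 12 were mitotic kinesins, 13 were transport kinesins and 9 had other roles. The rule used names only and no measured value. Symbols of 8 more family members had no entry in the table (KIF2B, KIF4B, KIF5A, KIF5C, KIF6, KIF12, KIF19 and KIF25) and were not analysed here.

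RNA was sequenced from HGC27, a human gastric cancer cell line, in 2 control libraries (genotype WT) and 2 siAARS1 libraries (AARS1 knockdown by small interfering RNA). The cells of both groups were grown in DMEM without glucose and were given 25 mM lactate, so every difference below is a difference under lactate. Per the labels the lactate was given for 24 h, but the text of the study gives another duration. AARS1 encodes the cytosolic alanyl-tRNA synthetase, and the study sequenced these cells to ask whether the enzyme acts on tumour cell growth through the Hippo pathway. The labels do not say whether the 2 libraries of a group came from separate cultures, so p-values measure only the spread between these libraries.

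A kinesin motor domain splits ATP at a loop of conserved residues, the P-loop, and turns this into steps along a microtubule or, in the kinesin-13 group, into removal of tubulin from its ends. The mitotic kinesins build the spindle, move chromosomes and complete cytokinesis, and their genes are switched on in G2 and mitosis of dividing cells. The transport kinesins carry vesicles, mitochondria and ciliary components, mostly toward the microtubule plus ends. KIFC genes encode motors that walk toward the minus ends.

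Depth was 30653210 to 33522573 reads per library over the genes of the table, and 1 read equalled 0.0293 to 0.0324 CPM. The gene targeted by the siRNA, which the table lists under its older symbol AARS (ENSG00000090861, on GRCh38 chromosome 16 from 70252295 to 70289543), gave 428 and 417 CPM without the siRNA against 292 and 298 CPM with it, a log2 fold change of -0.52 ± 0.04 (SE). MKI67, a gene of dividing cells, had 47.3 and 47.9 CPM against 233 and 234 CPM (log2 fold change 2.27 ± 0.04). Of the epithelial markers 2 of 5 were listed, and their summed level was 27.0 to 27.3 CPM in control and 6.14 to 7.29 CPM in siAARS1. KRT8, a keratin, made up most of it and fell. Of the mesenchymal markers 2 of 3 were listed, with summed levels of 5075 to 5137 CPM in control and 4652 to 4760 CPM in siAARS1, of which VIM made up nearly all and was called lower (log2 fold change -0.13), while ZEB1 rose from 6.16 and 6.84 CPM to 50.03 and 52.3 CPM. Of the 7 markers of fibroblasts, endothelium and blood cells, 3 were listed, with summed levels of 2336 to 2416 CPM in control and 1550 to 1652 CPM in siAARS1, nearly all of it COL1A1. The part of these differences in the results below was not tested. In bulk RNA, more cells of a kind and more RNA per cell cannot be told apart.

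Kinesin transcripts moved in both directions. In siAARS1, 18 of the 34 kinesins rose, 12 fell and 4 did not pass the test (limma on log2(CPM + 1), Benjamini-Hochberg over all genes tested, adjusted p under 0.05). Over all 14199 genes tested, 70.7% passed it, 32.6% as higher and 38.0% as lower. The split depended on the scaling: with the libraries scaled to equal medians, which moved the median change of all genes by -0.21, 16 kinesins were higher and 16 lower, and 29.7% of the genes called were higher in place of 46.2%. On the log2(CPM + 1) scale 11 of the 34 kinesins were at least 2-fold higher, against 10.6% of all genes tested, and KIF21B was the member at least 2-fold lower, against 1.63%. The summed kinesin level was 1690 and 1732 CPM in control against 2236 and 2257 CPM in siAARS1, 1.31 times as high. The libraries of the groups did not overlap for 33 of the 34 kinesins (18 higher and 15 lower), where 85.1% of all genes tested did not overlap. KIF9 was the member whose libraries overlapped. The plot of kinesin CPM by library shows these values.

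**Figure D1:**
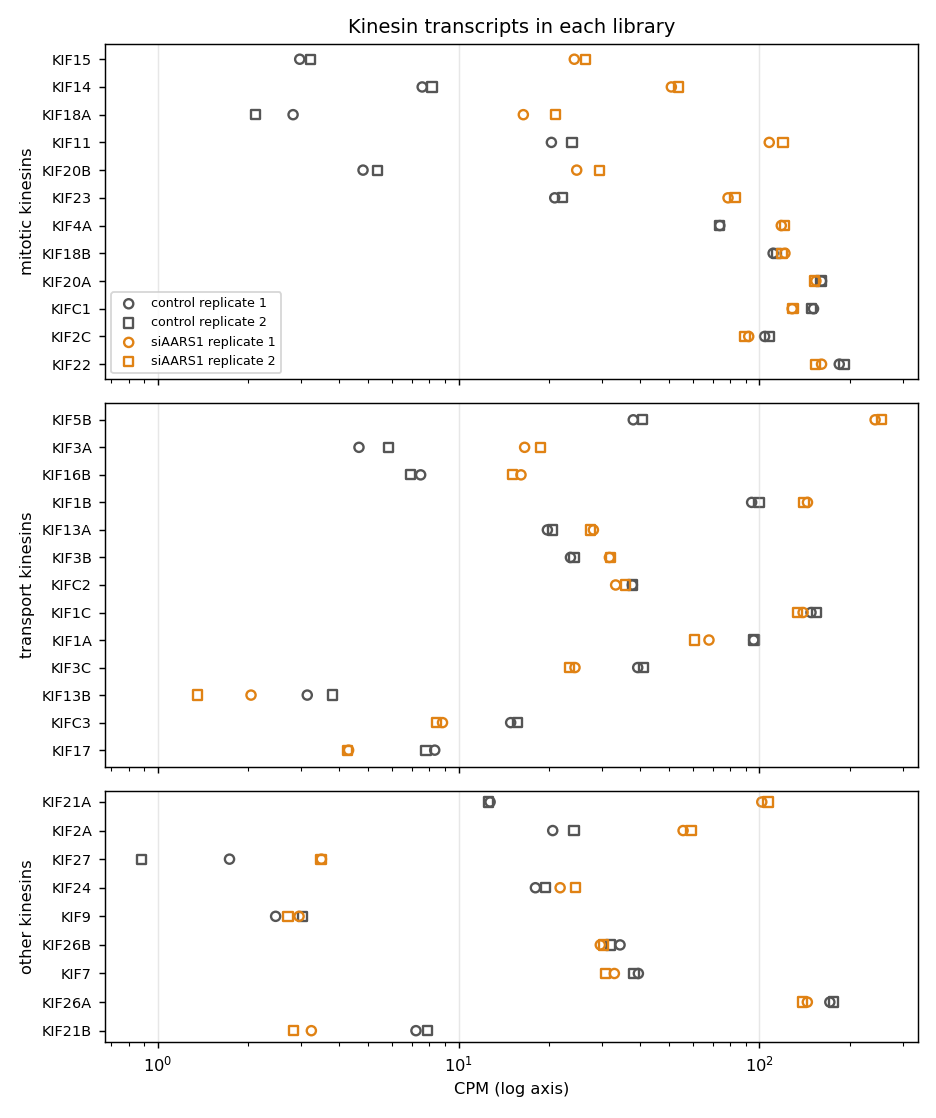
CPM of the 34 kinesins (log axis) in each of the 4 libraries, by class, with control in grey and siAARS1 in orange, circles for replicate 1 and squares for replicate 2. Within each class members are ordered by their change. KIF15, KIF14, KIF18A, KIF11, KIF20B, KIF23, KIF5B and KIF21A have their control and siAARS1 libraries far apart, and KIF9 has them mixed.

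The mitotic kinesins split into a group that rose several-fold and a group that moved little. Of the 12, 8 rose, 3 fell and KIF20A did not pass the test, where 32.6% of all genes rose and 38.0% fell. The median log2 fold change was 1.28, against -0.05 over all genes tested. The 6 mitotic members that were lowest per length in control had the 6 largest rises, and the class came closer together: per kilobase of transcript, the highest member (KIF22) was 118 times as high as the lowest (KIF15) in control, and 14.9 times as high as the lowest (KIF20B) in siAARS1. A change is measured from the control level, so the level and the rise are not independent. These levels are not corrected for base composition, and the 6 rises were smaller after each of the corrections described below. The same ratio went from 48.2 to 218 in the transport class and from 92.3 to 68.9 in the other class.

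KIF15, a spindle motor that can stand in for KIF11 in keeping the spindle bipolar (ENSG00000163808; chromosome 3, 44761717 to 44873376), had 2.96 and 3.22 CPM in control against 24.3 and 26.5 CPM in siAARS1. Its log2 fold change was 2.69 ± 0.10 (SE; adjusted p = 8.38e-16, limma), and both siAARS1 libraries were far above both controls. KIF15 overlaps TMEM42 on the same strand, and how reads were divided between them is not given in the sources used here. KIF14, a cytokinesis motor (ENSG00000118193; chromosome 1, 200551497 to 200620734), had 7.57 and 8.16 CPM against 51.0 and 53.8 CPM, a log2 fold change of 2.59 ± 0.08 (adjusted p = 9.90e-18, limma). KIF18A, which damps the movements of chromosomes on the spindle (ENSG00000121621; chromosome 11, 28020620 to 28108308), had 2.82 and 2.11 CPM against 16.4 and 21.1 CPM, a log2 fold change of 2.51 ± 0.13 (adjusted p = 1.60e-13, limma). KIF11, the motor that pushes the spindle poles apart (ENSG00000138160; chromosome 10, 92593286 to 92655395), had 20.4 and 23.8 CPM against 108 and 120 CPM, a log2 fold change of 2.32 ± 0.07 (adjusted p = 7.06e-18, limma). In these 4 genes the gap between the groups was larger than the gap between replicates.

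KIF20B and KIF23, both motors of cytokinesis, rose as well. KIF20B had 4.81 and 5.36 CPM in control against 24.7 and 29.4 CPM in siAARS1. KIF23, the motor of the centralspindlin complex, had 20.9 and 22.2 CPM in control against 78.7 and 83.1 CPM in siAARS1. KIF4A, a chromosome-bound motor that carries PRC1 to the spindle midzone, rose less, from 73.9 in both control libraries to 118 and 121 CPM. Reads of KIF4A may also match its near-identical copy KIF4B, which makes its level uncertain.

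The other mitotic members were already abundant in control, and their groups lay close together. KIF18B, which acts on astral microtubules, had 111 and 114 CPM in control against 122 and 119 CPM in siAARS1, with a log2 fold change of 0.10 ± 0.04 (adjusted p = 0.0455, limma) that became -0.13 with the libraries scaled to equal medians. With any 1 of the 4 libraries left out it did not pass the test (adjusted p = 0.0513 to 0.243, limma). KIF20A, which brings the Aurora B complex to the central spindle, had 161 and 160 CPM against 154 and 152 CPM and did not pass the test (log2 fold change -0.07 ± 0.04, adjusted p = 0.125, limma). KIFC1, the minus-end motor that gathers spindle poles, fell from 152 and 149 CPM to 129 and 130 CPM. KIF2C, a kinesin-13 that takes down microtubules at kinetochores, fell from 104 and 108 CPM to 92.2 and 89.6 CPM. KIF22, a chromosome-arm motor, fell from 184 and 191 CPM to 161 and 154 CPM. The 3 falls were at most 0.25 on the log2 scale.

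Most mitotic motors had a promoter feature that the rule did not use. The cell cycle genes homology region (CHR) is a short promoter element, TTTGAA, at which the MuvB complexes act on genes of G2 and mitosis, often with a CCAAT box, the binding element of NF-Y, upstream of it. RefSeq windows on GRCh38.p14 from 250 bases before to 50 bases after the gene start were found for 28 of the 34 kinesins and were searched on both strands for TTTGAA and for CCAAT, whose matches can overlap by 1 base at most. TTTGAA was found for 9 of 12 mitotic kinesins, 1 of 10 transport kinesins (KIF5B) and 0 of 6 others, against 15.2% of all 35116 windows and 10.3% of the windows of genes tested. CCAAT was found for 10 of 12 mitotic, 3 of 10 transport and 1 of 6 other kinesins, against 34.6% of all windows. The windows below, from 100 bases before to 30 bases after the start, are shown because their genes hold TTTGAA alike and moved differently. Capitals mark TTTGAA, or TTCAAA where it lies on the opposite strand. KIF11 and KIF23 had log2 fold changes of 2.32 and 1.86, and KIF18B and KIFC1 had 0.10 and -0.22. The other mitotic kinesins with TTTGAA rose: KIF14 (2.59), KIF15 (2.69), KIF18A (2.51), KIF20B (2.20) and KIF4A (0.69). The mitotic kinesins without it were KIF20A (-0.07), KIF2C (-0.22) and KIF22 (-0.25). Whether the element has a part in the changes was not tested.
KIF11 promoter, chr10:92593030-92593159, plus strand: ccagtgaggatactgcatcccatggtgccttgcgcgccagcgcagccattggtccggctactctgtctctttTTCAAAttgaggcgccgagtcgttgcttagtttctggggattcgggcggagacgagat
KIF23 promoter, chr15:69414249-69414378, plus strand: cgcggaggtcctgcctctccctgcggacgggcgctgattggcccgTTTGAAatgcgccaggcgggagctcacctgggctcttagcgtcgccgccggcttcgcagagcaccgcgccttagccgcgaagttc
KIF18B promoter, chr17:44947744-44947873, minus strand: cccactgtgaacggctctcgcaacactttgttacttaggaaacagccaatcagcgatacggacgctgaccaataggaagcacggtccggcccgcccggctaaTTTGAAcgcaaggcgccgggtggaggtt
KIFC1 promoter, chr6:33391723-33391852, plus strand: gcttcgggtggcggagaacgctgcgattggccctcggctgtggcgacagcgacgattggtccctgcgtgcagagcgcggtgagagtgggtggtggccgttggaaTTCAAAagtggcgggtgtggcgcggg
A match describes letters in a window and does not show that the element is used.

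The transport kinesins were divided evenly. Of the 13, 6 rose, 6 fell and KIFC2 did not pass the test, where 32.6% of all genes rose and 38.0% fell. The median log2 fold change was -0.13. The difference between the median of the mitotic and that of the transport class was 1.40, a description for which no test was made. Summed levels had the opposite order. The mean sum of the transport class went from 546 CPM in control to 759 CPM in siAARS1, 1.39 times as high. That of the mitotic class went from 854 to 1089 CPM, 1.28 times as high. Per kilobase of transcript, KIF1C was the highest transport member in control and KIF5B the highest in siAARS1.

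KIF5B, the ubiquitous heavy chain of conventional kinesin (ENSG00000170759; chromosome 10, 32009010 to 32056431), had 38.1 and 40.9 CPM in control against 243 and 255 CPM in siAARS1, a log2 fold change of 2.63 ± 0.05 (adjusted p = 7.64e-21, limma). It rose to 42.3 CPM per kilobase from 6.72, a level above that of every mitotic member other than KIF22, KIF20A and KIFC1. KIF3A, a subunit of the kinesin-2 that builds cilia (ENSG00000131437; chromosome 5, 132692628 to 132737638), had 4.66 and 5.83 CPM against 16.6 and 18.7 CPM, a log2 fold change of 1.58 ± 0.11 (adjusted p = 3.04e-11, limma). KIF16B, a motor of early endosomes (ENSG00000089177; chromosome 20, 16272104 to 16573434), had 7.48 and 6.93 CPM against 16.1 and 15.1 CPM, a log2 fold change of 1.02 ± 0.10 (adjusted p = 5.97e-09, limma). KIF17, a kinesin-2 homodimer of dendrites and cilia (ENSG00000117245; chromosome 1, 20664014 to 20718017), had 8.33 and 7.79 CPM against 4.31 and 4.27 CPM, a log2 fold change of -0.78 ± 0.12 (adjusted p = 4.32e-06, limma). The 3 rises and the fall each separated both libraries of a group from both of the other.

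Smaller rises were seen for 3 more motors of organelles and cilia. KIF1B, a carrier of mitochondria and synaptic vesicle precursors, had 94.3 and 99.8 CPM in control against 145 and 141 CPM in siAARS1. KIF13A, a motor of recycling endosomes, had 19.7 and 20.6 CPM against 28.1 and 27.5 CPM. KIF3B, the usual partner of KIF3A, had 23.6 and 24.2 CPM against 31.7 and 32.1 CPM. On the deposited CPM the kinesin-2 subunits thus ended less far apart, with KIF3A at 0.830 and KIF3B at 3.91 CPM per kilobase in control and at 2.79 and 5.23 in siAARS1. After the corrections described below, the changes of KIF3A and KIF3B differed by -0.10 and 0.04.

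Falls were seen for KIF1A, KIF1C, KIF3C, KIF13B and KIFC3 beside KIF17. KIF1A, the carrier of synaptic vesicle precursors in neurons, had 95.8 and 96.1 CPM in control against 68.0 and 61.1 CPM in siAARS1. KIF3C, the alternative partner of KIF3A, had 39.4 and 41.2 CPM against 24.4 and 23.4 CPM. KIFC3, a minus-end motor found at cell junctions, had 14.9 and 15.7 CPM against 8.84 and 8.45 CPM. These 3 fell by 0.57, 0.73 and 0.76 on the log2 scale. KIF13B, a motor of membrane vesicles, was the lowest transport member, at 3.14 and 3.81 CPM against 2.04 and 1.35 CPM. KIF1C, a motor of dense-core vesicles and integrins, fell from 149 and 155 CPM to 140 and 134 CPM, a call that was lost without control replicate 2 (adjusted p = 0.0681, limma). KIFC2, a minus-end motor described in neurons, had 37.8 and 38.0 CPM against 33.3 and 36.0 CPM and did not pass the test (adjusted p = 0.0682, limma).

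Among the 9 kinesins of other roles, 4 rose, 3 fell and 2 did not pass the test, where 32.6% of all genes rose and 38.0% fell. These 9 held the largest rise and the largest fall of the whole family, in the paralogs KIF21A and KIF21B. KIF21A, which restrains microtubule growth at the cell cortex (ENSG00000139116; chromosome 12, 39293228 to 39443390), had 12.7 and 12.5 CPM in control against 102 and 107 CPM in siAARS1, a log2 fold change of 2.95 ± 0.06 (adjusted p = 3.08e-20, limma). KIF21B, which regulates microtubule growth in neurons and immune cells (ENSG00000116852; chromosome 1, 200969390 to 201023700), had 7.21 and 7.88 CPM against 3.24 and 2.83 CPM, a log2 fold change of -1.08 ± 0.12 (adjusted p = 1.08e-07, limma). KIF21A stood at 1.91 CPM per kilobase and KIF21B at 0.763 in control, and at 15.8 and 0.306 in siAARS1.

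KIF2A, the kinesin-13 of interphase cells and spindle poles (ENSG00000068796; chromosome 5, 62306162 to 62537249), had 20.6 and 24.2 CPM in control against 55.8 and 59.3 CPM in siAARS1, a log2 fold change of 1.33 ± 0.07 (adjusted p = 2.46e-13, limma). The gene overlaps IPO11 on the same strand and DIMT1 on the opposite strand. KIF27, a relative of KIF7 (ENSG00000165115; chromosome 9, 83836698 to 83921465), was the lowest kinesin in control, at 1.73 and 0.883 CPM, and had 3.50 and 3.49 CPM in siAARS1, a log2 fold change of 0.99 ± 0.17 (adjusted p = 2.24e-05, limma). KIF24, a brake on cilium formation at the mother centriole, had 18.0 and 19.5 CPM against 21.8 and 24.5 CPM and rose by 0.29 on the log2 scale. This call was lost without siAARS1 replicate 2 (log2 fold change 0.21) and with the libraries scaled to equal medians (0.07). KIF7, which tunes Hedgehog signalling at the tip of the cilium, fell from 39.6 and 38.3 CPM to 32.96 and 30.9 CPM. KIF26A and KIF26B are atypical members that bind microtubules without ATPase activity. KIF26A fell from 172 and 176 CPM to 144 and 139 CPM. KIF26B had 34.4 and 32.0 CPM against 29.6 and 30.4 CPM, and KIF9, a motor of motile cilia, had 2.46 and 3.03 CPM against 2.95 and 2.71 CPM. These last genes did not pass the test (adjusted p = 0.0574 and 0.839, limma), and KIF9 overlaps its antisense gene KIF9-AS1 where the use of strand is not stated.

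The direction of a kinesin went with the base composition of its transcript. The transcripts (the longest complete protein-coding transcript of each gene in GENCODE release 29) ranged from 34.2% GC in KIF20B to 68.3% GC in KIF26A, and the median over genes tested was 49.2%. Of the 17 kinesins below this median, 16 rose, 0 fell and KIF20A did not pass the test by limma, and 0 were lower at an unadjusted p under 0.05, by edgeR or by DESeq2. Of the 17 at or above it, 2 rose (KIF18B and KIF24), 12 fell and 3 did not pass the test. Spearman's rank correlation across genes between the log2 fold change and transcript GC was -0.89 over the 34 kinesins, -0.83 over the 12 mitotic and -0.83 over the 13 transport members. It was -0.66 over 13819 genes tested, and of all genes below the median GC 58.1% rose and 15.7% fell, against 7.26% and 61.1% at or above it. These values describe genes measured in the same 4 libraries, and genes are not independent replicates. Transcript length went with the change in the mitotic members (rank correlation 0.80) and less in the family as a whole (rank correlation 0.029, against 0.32 over all genes). The share of alanine codons, which the knocked-down enzyme serves, had a rank correlation of -0.70 over the kinesins and -0.34 over all genes. Alanine codons begin with GC, and the part of this share was not tested apart from that of GC content. The plot of change against GC content places the kinesins among all genes.

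**Figure D2:**
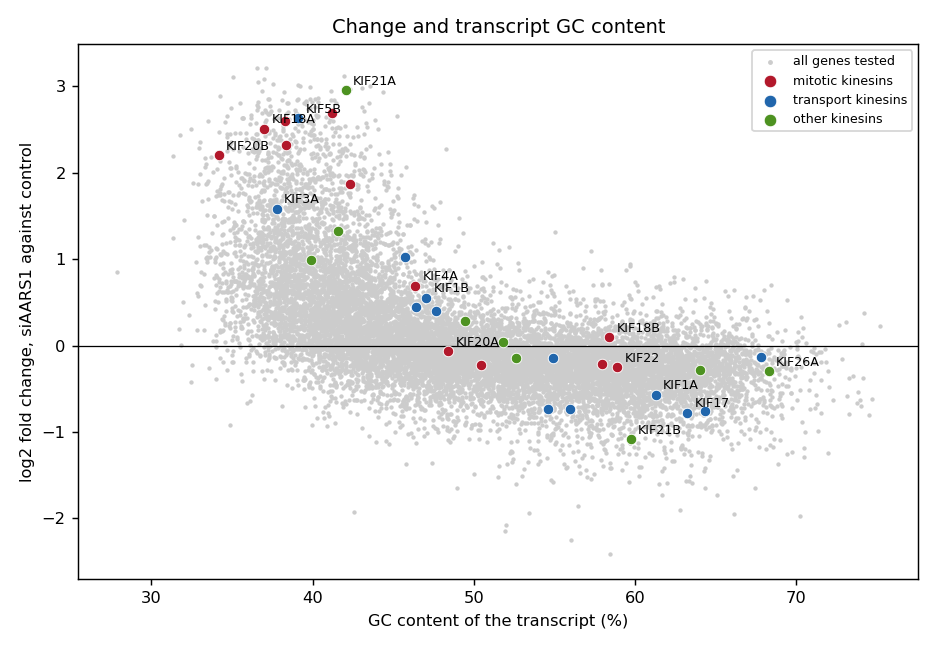
Log2 fold change (siAARS1 against control, log2(CPM + 1) scale) against the GC content of the transcript in percent, with all genes tested in grey and the mitotic, transport and other kinesins in red, blue and green. Kinesins below a GC content of 49.2% lie above 0 with the exception of KIF20A, and most of those above it lie below 0.

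A correction that took the trend with GC content and length out of each library made the changes smaller and moved the split. With it 21 kinesins were higher, 6 lower and 7 not called, against 66.0% of all genes called, 32.7% higher and 33.3% lower. A second correction, for the composition and length of the coding sequence and the 3′ UTR, gave 17 higher, 13 lower and 4 not called, against 72.3%, 36.5% and 35.9% of all genes. A true change that goes with composition or length is taken out as well, so neither gives the right value by itself. Under the first, 10 mitotic kinesins were higher, 0 lower by limma (also 0 at an unadjusted p under 0.05) and 2 not called, and 8 transport kinesins were higher and 5 lower. Under the second these counts were 10, 2 and 0 for the mitotic class, and 5 higher, 7 lower and 1 not called for the transport class. The kinesins at least 2-fold higher went from 11 to 7 and 4, against 3.21% and 2.09% of all genes. The mitotic median went from 1.28 to 0.63 and 0.34, the transport median from -0.13 to 0.23 and -0.09, and the difference between them from 1.40 to 0.41 and 0.42. KIF15 had log2 fold changes of 1.96 and 1.46 after the corrections, KIF18A 1.59 and 1.18, KIF5B 1.42 and 1.12, and KIF21A 2.14 and 1.60. KIF20B went from 2.20 to 0.65 and 0.33, and KIF3A from 1.58 to 0.28 and 0.28. KIFC1 and KIF22, lower without a correction, were higher by at most 0.11 with either. KIF1C, KIF7 and KIF26A, lower before, were at 0.11, 0.08 and 0.01 with the first, and KIF1B and KIF13A, higher before, were at -0.09 and -0.04 with the second. MKI67 had 2.04 and 1.45, and AARS, the target of the siRNA, had -0.29 and -0.40 (called lower with either) where it had -0.52 before.

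**Figure D3:**
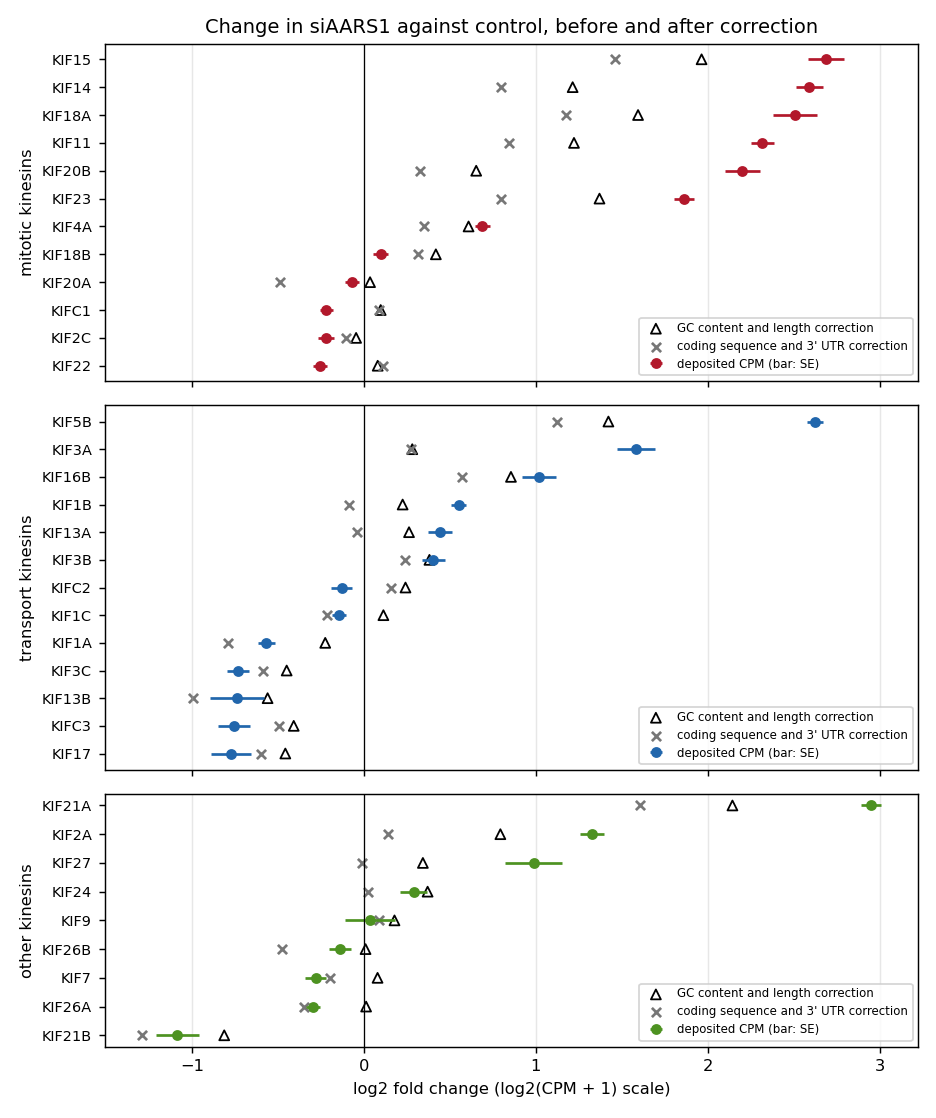
Log2 fold change of each kinesin (siAARS1 against control) from the deposited CPM (filled circles, bars are SE, n = 2 libraries per group), after the correction for GC content and length (triangles) and after that for coding sequence and 3′ UTR (crosses), by class. KIF15, KIF18A, KIF5B and KIF21A stay above 1 in all 3, whereas KIFC1 and KIF22 cross 0.

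In all 3 fits 20 kinesins were called the same way. The share of all genes called the same way in the 3 fits was not computed, so this count is a description. In the single fits 70.7%, 66.0% and 72.3% of all genes were called. The 14 kinesins that were higher in each were KIF15, KIF14, KIF18A, KIF11, KIF20B, KIF23, KIF4A and KIF18B among the mitotic, KIF5B, KIF3A, KIF16B and KIF3B among the transport, and KIF21A and KIF2A among the other members. The 6 that were lower in each were KIF1A, KIF3C, KIF13B, KIFC3 and KIF17 of the transport class and KIF21B. No mitotic kinesin was lower in all 3.

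Some paralogs of the same number moved in opposite directions. Among 21 kinesins that share a number and differ in their letter, or belong to KIFC1 to KIFC3, 15 pairs could be formed, and in 7 of them a member rose while the other fell. In 13 of the 15 the member with the lower GC content had the more positive change. Neither count was set against pairs of other genes, and change and GC content had a rank correlation of -0.66 over all genes. The KIF1, KIF3 and KIFC genes enter more than a single pair each, so the pairs are not separate observations. The difference between KIF21A and KIF21B was 4.04 ± 0.14 (SE of the difference, taking the errors of both genes as independent) on the log2 scale, and 2.96 and 2.90 after the corrections. Between KIF18A and KIF18B it was 2.41 ± 0.14, and 1.18 and 0.86 after them. Between KIF3A and KIF3C, which can form a kinesin-2 together, it was 2.31 ± 0.13, and 0.73 and 0.86 after them. KIF3A and KIF3B differed by 1.18 ± 0.13 before the corrections and by -0.10 and 0.04 after them. KIFC1 and KIFC2 differed by -0.09 ± 0.07, and KIF26A and KIF26B by -0.15 ± 0.08, with a member of each pair not called. In 3 pairs (KIF21A with KIF21B, KIF3A with KIF3C, and KIF3B with KIF3C) the members were called in opposite directions in all 3 fits.

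**Figure D4:**
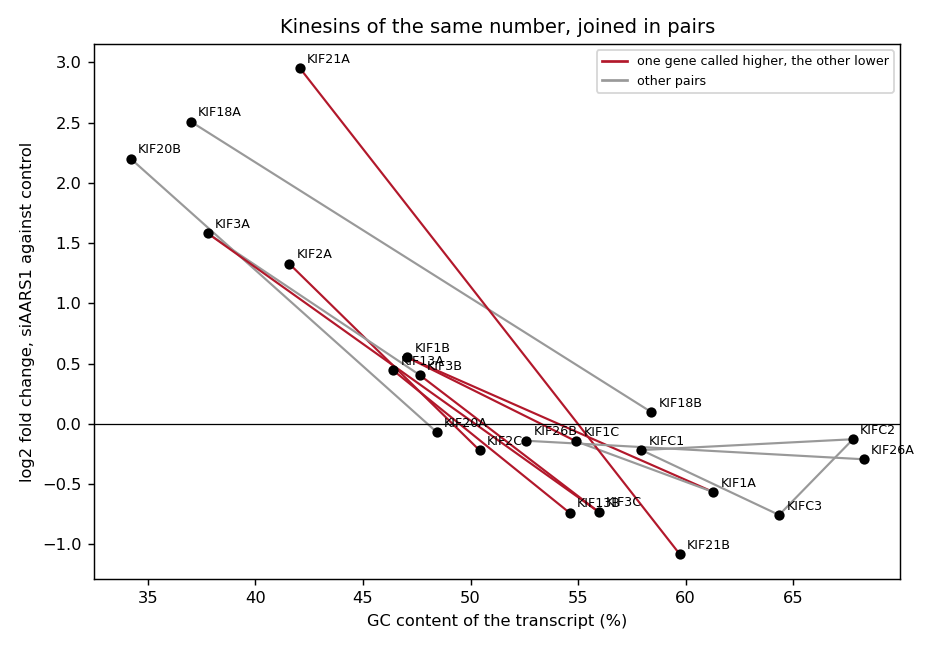
Log2 fold change (siAARS1 against control) against transcript GC content in percent for the 21 kinesins with a paralog of the same number, with lines joining the 15 pairs and red lines for the 7 pairs in which a member rose and the other fell. Most lines run downward to the right, so that in 13 pairs the member with the lower GC content has the more positive change.

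The sequences around the P-loop show, for a single such pair, how base composition differed where the encoded residues were nearly the same. A stretch of 72 coding bases (24 codons) with the P-loop was found in 32 of the 34 kinesins and in neither KIF26A nor KIF26B. The stretches below are shown for the pair with the widest split. Capitals mark the 8 codons of the P-loop, and positions are GRCh38 with GENCODE release 29 exons.
KIF21A, exons 2 to 3, minus strand, within chr12:39369870-39370068: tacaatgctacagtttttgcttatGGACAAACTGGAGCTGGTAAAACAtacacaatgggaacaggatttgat
KIF21B, exons 2 to 3, minus strand, within chr1:201008910-201009295: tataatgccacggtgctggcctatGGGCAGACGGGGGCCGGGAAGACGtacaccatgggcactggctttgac
KIF21A and KIF21B had 52 of 72 bases and 23 of 24 encoded residues in common, and G or C stood at the last codon position in 12.5% and 79.2% of the codons. Other pairs with a rise and a fall differed less there, with 25.0% in KIF2A and 33.3% in KIF2C. KIF13A had 37.5% and KIF13B 41.7%. The difference was wide again between KIF1B (25.0%) and KIF1A (91.7%) or KIF1C (75.0%). It was also wide between KIF3C (79.2%) and KIF3A (25.0%) or KIF3B (37.5%). In the pair of KIF1A and KIF1B, KIF1B rose by 0.55 on the log2 scale and KIF1A fell by 0.57, and their difference, -1.12 ± 0.07 for KIF1A minus KIF1B, was -0.45 and -0.70 after the corrections. Over the 34 kinesins, GC content at the last codon position of the coding sequence had a rank correlation of -0.88 with the change.

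Partner genes of the mitotic motors moved in both directions. Of 18 listed partners, 8 rose, 6 fell and 4 did not pass the test, where 32.6% of all genes rose and 38.0% fell, with a median log2 fold change of 0.04. After the corrections 11 and 8 of them were higher and 3 and 6 lower. Of all genes 32.7% and 36.5% were then higher, and 33.3% and 35.9% lower. ECT2, a protein that centralspindlin recruits for cytokinesis, had 11.2 and 12.01 CPM in control against 62.7 and 66.1 CPM in siAARS1 (log2 fold change 2.37). HMMR, a spindle-pole protein, had 5.28 and 5.96 CPM against 28.2 and 32.6 CPM (2.24). CENPE, a kinetochore motor that belongs to the kinesins by its protein and was left out of the members by its symbol, had 3.26 and 3.40 CPM against 14.9 and 19.1 CPM (2.05). After the corrections these 3 had 1.35 and 0.91, 1.37 and 0.80, and 0.55 and 0.14. RACGAP1, which forms centralspindlin with KIF23, had a log2 fold change of 0.13 where KIF23 had 1.86, and PRC1, the cargo of KIF4A, had -0.03 and did not pass the test. TPX2, which binds KIF11 and KIF15 to the spindle, had 0.21, and AURKB, whose complex travels with KIF20A, had -0.41. After the corrections KIF23 had 1.37 and 0.80, RACGAP1 had -0.14 (called lower) and -0.04 (not called), and PRC1 had 0.03 (not called) and -0.07 (called lower). TPX2 then had 0.20 and -0.01 (not called), and AURKB had -0.09 (called lower) and 0.07 (not called). RACGAP1, PRC1, TPX2 and AURKB are outside the rule for named genes and were chosen, after their values were seen, as the partners of single motors.

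Among 17 listed adaptors and cargo regulators of the transport motors, 5 rose, 9 fell and 3 did not pass the test, with a median of -0.11 and against the same shares of all genes. After the corrections 3 and 2 were higher, 4 and 11 lower, and 10 and 4 not called. The shares of all genes were then 32.7% and 36.5% higher, and 33.3% and 35.9% lower. FEZ1, an adaptor of kinesin-1, had 5.54 and 5.30 CPM in control against 1.52 and 1.38 CPM in siAARS1 (log2 fold change -1.39, and -1.26 after each correction). TRAK2, which links kinesin-1 to mitochondria, had 32.8 and 37.0 CPM against 65.2 and 69.8 CPM (0.93, and 0.13 and 0.35 after the corrections). KIFAP3, the third subunit of kinesin-2, had 26.7 and 26.8 CPM against 42.7 and 44.8 CPM (0.69, and -0.31 and -0.60 after them). The light chains of kinesin-1 that were listed, KLC1, KLC2 and KLC4, fell (log2 fold changes of -0.23, -0.32 and -0.45) while the heavy chain KIF5B rose (2.63), and they were also named after their values were seen. After the correction for GC content and length none of these 3 passed the test (-0.01, 0.04 and -0.13), and after the other KLC1 was lower (-0.52) while KLC2 and KLC4 did not pass it (0.02 and -0.11), where KIF5B had 1.42 and 1.12. The plot of kinesins and partners sets these groups side by side.

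**Figure D5:**
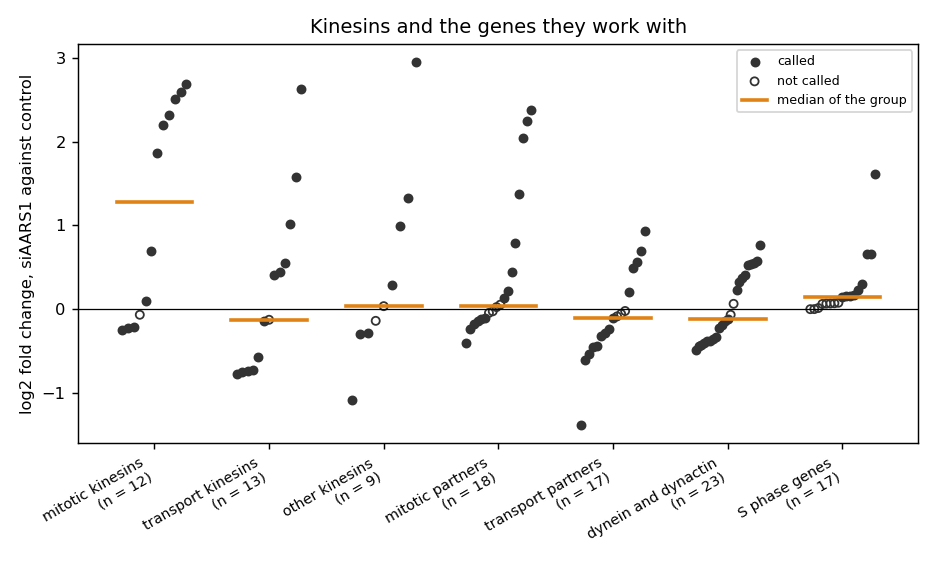
Log2 fold change (siAARS1 against control, log2(CPM + 1) scale) of each gene of the 3 kinesin classes, of their partner genes, of dynein and dynactin and of S phase genes, with filled points for genes called by limma, open points for genes not called and an orange line at the median of each group. The median of the mitotic kinesins is 1.28, and those of the other groups lie between -0.13 and 0.14.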

How the data were processed

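Groups and replicate numbers were read from the sample titles. The authors deposited 1 table of CPM values (reads scaled to library size) for 14431 genes, with no columns of their own comparisons. The submitters' processing notes name RSEM 1.3.3 and hg38. The aligner, annotation and use of strand are not given in the sources used here. CPM corrects neither for transcript length nor for base composition. In each library 100% of the values were whole multiples of 1 read (tolerance 0.1 read), which gave 30653210 to 33522573 reads per library. Counting error is not the only error, since reads are not independent molecules.

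All 4 libraries entered a limma fit (version 3.58.1 in R 4.3.3, moderated with an eBayes trend) of log2(CPM + 1), over the 14199 genes whose mean reached 1 CPM in either group, with Benjamini-Hochberg adjusted p-values and a threshold of 0.05. Fold changes on this scale understate the change of low genes. Transcripts, exons and gene positions came from GENCODE release 29 (GRCh38) for all 34 kinesins, matched by gene identifier, and levels between genes were compared as CPM per kilobase. The corrections subtracted from each library its smooth trend with GC content and length, or with coding sequence and 3′ UTR (mgcv 1.9.3). edgeR 4.0.16 and DESeq2 1.42.0 were run on the recovered reads as alternatives. The limma fit, edgeR and the corrections were tried on simulated data whose true changes were drawn without regard to composition. A true change that goes with composition was not covered by this. Replicates differed by more than sampling noise (chi-square per gene 3.62 and 3.60) and were kept apart.

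The kinesins, their classes and the gene lists were chosen with earlier results of these data known. Every kinesin is named. Full statistics are given for up to 4 called members with the largest change in each class, and each list of partners is shown by its 3 called genes of largest change at most. The listed symbols AARS and KIAA1279 stand for AARS1 and KIFBP.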

Additional observations from a re-analysis of the deposited data

How the results depend on the processing

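The number of kinesins called was 27 to 32 in every fit tried, against 30, and for 28 of the 34 kinesins direction and call held with each library left out in turn (29 called each time). The calls that changed then were those of KIF18B (without each library), KIF1C and KIF26B (without control replicate 2, log2 fold changes -0.12 and -0.19), and KIF24 and KIFC2 (without siAARS1 replicate 2, 0.21 and -0.18), where the lone sample of a group is assumed to vary like the others. KIF9 lay between -0.074 and 0.14 in these fits and took the opposite sign without control replicate 1 (-0.074) and without siAARS1 replicate 1 (-0.010). The difference between the mitotic and transport medians, 1.40, was 1.36 to 1.41 with each library left out, 1.43 with a pseudocount of 0.1, with edgeR and with DESeq2, 1.34 with quantile normalization, and 1.14 with KIF2A and KIF24 counted as mitotic and KIF21A and KIF21B as transport. It was 0.41 after the correction for GC content and length and 0.42 after that for coding sequence and 3′ UTR. The cause was not tested.

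Signs turned for 8 kinesins after the GC content and length correction (KIF20A 0.036, KIFC1 0.097, KIF22 0.080, KIFC2 0.24, KIF1C 0.11, KIF26B 0.0095, KIF7 0.079 and KIF26A 0.013). They turned for 6 after the other correction (KIFC1 0.087, KIF22 0.11, KIF1B -0.085, KIF13A -0.043, KIFC2 0.16 and KIF27 -0.0099). Scaling to equal medians turned KIF18B and KIF9 (both -0.13). Kinesins called then split as 16 higher and 16 lower, and as 16 and 14 with quantile normalization. Of all genes 8355 (DESeq2) to 11378 (median scaling) were called, against 10032, and of 75 partner, dynein and S phase genes 51 to 63, against 58, with 19 higher and 44 lower under median scaling in place of 31 and 27. edgeR called 18 kinesins higher and 12 lower, and DESeq2 18 and 11. The libraries share replicate numbers, but the labels do not say that these pair them, and deviations of same-numbered libraries correlated with 0.12 across genes. With the replicate block 32 kinesins and 10389 genes were called and the class difference was 1.40. KIFC2 and KIF26B were then called lower, and the block together with the GC correction gave 27 kinesins and a class difference of 0.41. KIF20A and KIF26B, not called on the deposited CPM, were called lower under median scaling (-0.30 and -0.36) and by the correction for coding sequence and 3′ UTR (-0.49 and -0.48), and KIF26B also with quantile normalization (-0.33).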

Other observations

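Dynein, the motor that walks toward the minus ends against most kinesins, moved in both directions with its cofactor dynactin. Of 23 listed subunits and regulators, 9 rose, 12 fell and 2 did not pass the test, with a median log2 fold change of -0.12, where 32.6% of all genes rose and 38.0% fell. BICD1, a cargo adaptor, had 10.3 and 9.83 CPM in control against 17.7 and 17.9 CPM in siAARS1 (log2 fold change 0.77, and -0.53 and 0.12 after the corrections for GC content and length and for coding sequence and 3′ UTR). DYNC1LI2, a light intermediate chain, had 105 and 99.7 CPM against 152 and 155 CPM (0.58, and 0.17 and 0.43 after them). PAFAH1B1, the dynein regulator LIS1, had 63.3 and 65.2 CPM against 91.5 and 98.1 CPM (0.55, and -0.24 and 0.05). None of the 23 was 2-fold higher or lower, with or without a correction. Of all genes 10.6% were at least 2-fold higher and 1.63% at least 2-fold lower. After the corrections 3.21% and 2.09% were at least 2-fold higher. Among 23 genes, shares of 1.63% to 3.21% would give few or none. Of the 34 kinesins 11 were at least 2-fold higher, and 7 and 4 after the corrections. After the corrections 5 and 6 of the 23 were higher and 13 and 11 lower. Of all genes 32.7% and 36.5% were then higher and 33.3% and 35.9% lower.

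Genes of S phase had a median change of 0.14 where the mitotic motors had 1.28, and the difference was not tested. Of 17 listed, 9 rose, 0 fell and 8 did not pass the test by limma, with 0 lower at an unadjusted p under 0.05, by edgeR or by DESeq2. Of all genes tested 32.6% rose and 38.0% fell by limma. CCNE2, a cyclin of S phase entry, had 6.25 and 7.12 CPM in control against 20.7 and 24.2 CPM in siAARS1 (1.61, and 0.71 and 0.37 after the corrections). RRM1, a subunit of ribonucleotide reductase, had 132 and 138 CPM against 213 and 215 CPM (0.66, and 0.30 and -0.15), and MCM6, a subunit of the replicative helicase, had 127 in both controls against 199 and 202 CPM (0.65, and 0.25 and 0.17). After the corrections the median over the 17 genes was 0.27 and 0.25, where that of the mitotic motors was 0.63 and 0.34. Of the 17 genes 16 and 13 were then higher and 0 and 3 lower. Of all genes 32.7% and 36.5% were then higher and 33.3% and 35.9% lower.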
